A study of Mus musculus with 10 samples.

Results

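The regions described here are the 500 kb bins of mouse chromosomes 11, 15, 17 and 19 in 2 maps of chromosome contacts, one from naive B cells and one from plasma cells, which secrete antibody and arise from B cells. The 4 chromosomes held 765 bins (244, 207, 191 and 123), of 4955 bins on the 19 autosomes and 5296 bins in each map. Of these, 730 passed a coverage filter in both maps (238, 201, 177 and 114), and the contacts described are the 6 blocks that each of these chromosomes forms with the other 3. The chromosomes were picked because their contacts with each other were much lower in the plasma map. That difference is therefore given as a description with no test, and so is everything else read from the same pair of maps.

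The maps were made by tethered conformation capture (TCC), a form of Hi-C in which DNA ends that lie close together in fixed nuclei are ligated and sequenced as pairs. Strain C57BL/6 was labelled for every library used here, and 1 library stood for each cell type in each assay, so nothing below has a replicate check. The naive TCC cells came from spleens of wild-type (WT) mice and were purified with beads against CD23. The genotype label of the plasma TCC library is Blimp-GFP mice, in which a green fluorescent reporter follows the plasma cell regulator Blimp-1. Its labels conflict: the source field names cells sorted ex vivo, whereas the protocols describe CD23+ cells cultured for 3 days with 10 µg/ml LPS (lipopolysaccharide) and sorted for GFP. Strain aside, genotype and culture moved with the cell type and cannot be told apart from it. ATAC-seq, which marks accessible chromatin, used 50000 cells per library from WT mice, CD23+ IgD+ spleen cells for naive B and CD138+ B220- bone marrow cells for plasma. The plasma cells behind the accessibility and contact data were thus not obtained the same way. RNA-seq was of WT cells, with a spleen sort for naive B and, for plasma, labels that name activation in vitro in one field and a sort from bone marrow in another.

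Between autosomes, 8547089 read pairs were recovered from the naive map and 7188069 from the plasma map. In the RNA libraries, 5 of the 5 matched naive B markers were higher in naive B cells (summed 6911 TPM, a length-corrected share of all transcripts, against 1008). Of 6 plasma markers 5 were higher in plasma cells (summed 1019 against 7995 TPM), and Sdc1, the gene for the sorting antigen CD138, was not (11.1 against 5.38 TPM). All 5 markers of T cells, myeloid cells and red cells were above 0 in naive B cells (summed 167 TPM). In plasma cells 3 of them were above 0 (summed 2.75 TPM), with Cd3e and Hbb-bs at 0. The median log2 difference over 7493 genes was -0.99 in plasma cells, and RNA changes below are relative to it. The part of such cells in the contact values was not tested.

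Each chromosome occupies a territory of its own in the nucleus, and contacts between chromosomes form mainly where territories touch or where segments loop out of them. Segments rich in active genes tend to meet other active segments, and silent segments tend to meet silent ones. Mouse autosomes carry the centromere at one end, so that the start of each numbered sequence lies by the centromere and its end is a telomere. The study asked about a hub of contacts between chromosomes and the unfolded protein response, the programme by which a secretory cell expands its endoplasmic reticulum. Its sensor IRE1 (encoded by Ern1) splices the mRNA of the transcription factor Xbp1, and another branch acts through the transcription factor Atf4. Xbp1 and Ern1 lie on chromosome 11 and Atf4 on chromosome 15.

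The promoters of these 3 genes, whose bins are followed below, are shown as the 250 bases before the annotated start, from RefSeq on GRCm38.p6. The capitals mark CCAAT, the letters bound by NF-Y, and CCACG, which with CCAAT makes up the element through which ATF6 and XBP1 act, both searched on both strands.
Xbp1 (chr11:5520391-5520640, plus strand): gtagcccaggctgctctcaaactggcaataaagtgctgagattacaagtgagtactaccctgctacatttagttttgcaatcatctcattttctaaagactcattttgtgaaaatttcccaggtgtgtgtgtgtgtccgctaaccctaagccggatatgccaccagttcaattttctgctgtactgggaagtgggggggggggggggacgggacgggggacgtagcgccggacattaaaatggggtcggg
Ern1 (chr11:106487797-106488046, minus strand): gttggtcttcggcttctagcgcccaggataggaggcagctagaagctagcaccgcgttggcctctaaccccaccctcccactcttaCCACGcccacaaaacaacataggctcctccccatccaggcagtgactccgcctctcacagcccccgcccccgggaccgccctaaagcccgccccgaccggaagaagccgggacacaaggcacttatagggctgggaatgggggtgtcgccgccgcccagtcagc
Atf4 (chr15:80254934-80255183, plus strand): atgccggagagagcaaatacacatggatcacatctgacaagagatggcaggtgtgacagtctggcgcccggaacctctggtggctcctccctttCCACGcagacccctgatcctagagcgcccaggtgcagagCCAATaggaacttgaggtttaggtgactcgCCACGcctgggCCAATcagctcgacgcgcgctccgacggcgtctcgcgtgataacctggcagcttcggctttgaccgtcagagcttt
The Atf4 window held 2 matches to each motif, the Ern1 window 1 match to CCACG, and the Xbp1 window 0 matches to either. CCAAT was present in 33.9% and CCACG in 28.3% of 32851 promoter windows of the same length. A contact map of 500 kb bins cannot resolve a promoter, and the sequences serve only to show the genes' start sites.

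In naive B cells the 4 chromosomes contacted each other more than autosomes did on average, and in plasma cells part of that excess was gone. Their level, the mean contact divided by the mean of the same map over all bin pairs between autosomes, was 1.75 in the naive map and 1.44 in the plasma map. With both maps scaled to the same mean row sum, the plasma over naive ratio of the 6 blocks was -0.59 on the log2 scale (95% counting interval -0.60 to -0.59), from 319980 and 216113 read pairs. Contacts between all autosomes had a log2 ratio of -0.31 on this scale, a ratio of 0.808, so the 6 blocks stood 0.28 below that shift. Log2 ratios and ratios below include the shift, and levels do not. The same 4 chromosomes with the other 15 autosomes had a log2 ratio of -0.28, and their level there was 1.10 in the naive map and 1.12 in the plasma map.

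The 6 blocks were not alike. The block of chromosomes 15 and 19 had the strongest naive contact of all pairs of autosomes and the lowest ratio, with levels of 2.50 and 1.69 and a log2 ratio of -0.87 (interval -0.89 to -0.85). Chromosomes 17 and 19 followed with levels of 2.13 and 1.64 and a log2 ratio of -0.68. Chromosomes 11 and 19 had levels of 2.19 and 1.70 and a log2 ratio of -0.67. Chromosomes 15 and 17 had levels of 1.56 and 1.21 and a log2 ratio of -0.67. These were the 4 lowest ratios among all pairs of autosomes.

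The other two blocks differed less. Chromosomes 11 and 15 had levels of 1.44 and 1.29 and a log2 ratio of -0.47, which was rank 27 from the lowest. Chromosomes 11 and 17 had levels of 1.39 and 1.39 and a log2 ratio of -0.31 (interval -0.33 to -0.29), at rank 84 and next to the median pair at -0.30. Against the average of the autosomes this block was not lower, and the description of large losses does not hold for it. Just outside the lowest 4 were chromosomes 16 and 18 (-0.63), 12 and 16 (-0.62) and 9 and 19 (-0.61). Across all pairs of autosomes, the log2 ratio had a Pearson r of -0.80 with the log2 naive level, with which it shares the naive value, and of 0.57 with the summed length of the pair. Ratios above 1 were found for 5 pairs, none of them among the 6.

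**Figure D1:**
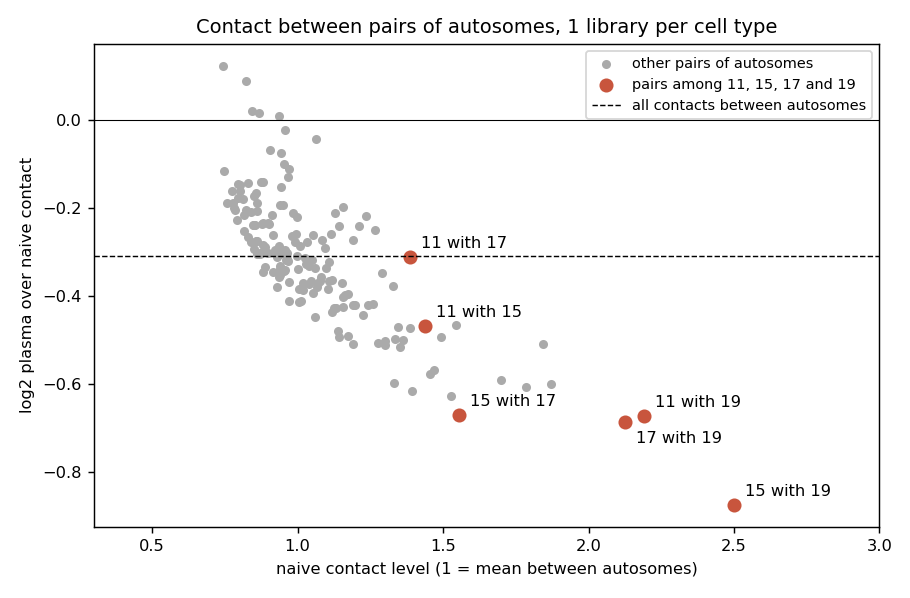
Plasma over naive contact (log2) for each pair of autosomes against its naive level (1 is the mean between autosomes), with the 6 blocks in red and the ratio of all contacts as a dashed line. The block of 15 and 19 lies lowest at -0.87, and that of 11 and 17 lies on the dashed line.

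Read per chromosome, chromosome 19 had the lowest log2 ratio with the other 3 (-0.74), followed by 15 (-0.65), 17 (-0.53) and 11 (-0.48). With the 15 other autosomes the same chromosomes had -0.29, -0.36, -0.36 and -0.14. Chromosome 19, the shortest autosome, also had the largest share of its contact outside itself, 35.7% in naive and 28.2% in plasma, against 25.1% and 20.5% over all autosomes. For chromosome 11 the shares were 26.1% and 23.3%, a change of -2.80 points against -4.55 over all autosomes. Chromosomes 1, 2 and 6 changed less (-2.37, -2.79 and -2.63 points).

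Bin by bin, contact with the other 3 chromosomes was lower nearly everywhere, but long stretches differed in depth. A bin was called lower at a ratio of at most 1/1.5 and kept at a ratio of at least 0.8. The second cut-off lies by the ratio of all autosomes (0.808), so a kept bin can still have lower contact in plasma cells. Of 730 bins 339 (46.4%) were lower and 118 (16.2%) kept their contact, where the same rules call 4.87% and 51.8% of all autosomal bins with all other autosomes, and 4.78% and 54.1% of the bins of the 15 others. The 339 bins cannot be read as a finding, since the chromosomes were chosen on this contrast. With the 15 other autosomes the member bins gave 3.7% lower and 52.2% kept, but the chromosomes differed. Kept with the 15 others were 187 of 238 bins on chromosome 11, 62 of 201 on chromosome 15, 60 of 177 on chromosome 17 and 72 of 114 on chromosome 19, and 22 of the 27 lower bins lay on chromosome 17. In 620 of 730 bins the ratio with the other 3 chromosomes was below the ratio with the 15 others. The counts depend on the scale: with both maps set to the same mean between autosomes, 72 bins were lower and 440 kept.

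The 4 chromosomes divided differently. On chromosome 19, 100 of 114 bins were lower and 0 kept, with ratios from 0.470 to 0.713 and a median of 0.621. On chromosome 15, 96 of 201 were lower and 18 kept (median 0.672, range 0.448 to 0.917). On chromosome 17, 82 of 177 were lower and 43 kept, and its range of 0.443 to 1.21 was the widest (median 0.689). On chromosome 11, 61 of 238 were lower and 57 kept (median 0.736, range 0.500 to 1.07). A ratio of at least 1 was found in 13 bins (1.78%, against 6.08% of all autosomal bins, 6.04% of the bins of the 15 others and 9.18% of the member bins with the 15 others), of which 12 lay on chromosome 17 and 1 on chromosome 11. The counting interval of the ratio lay wholly below 1 in 689 bins and wholly above it in 4. The same count over all autosomal bins was not made. Contact between all autosomes had a ratio of 0.808, so the 689 bins cannot be read as a trait of these chromosomes.

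**Figure D2:**
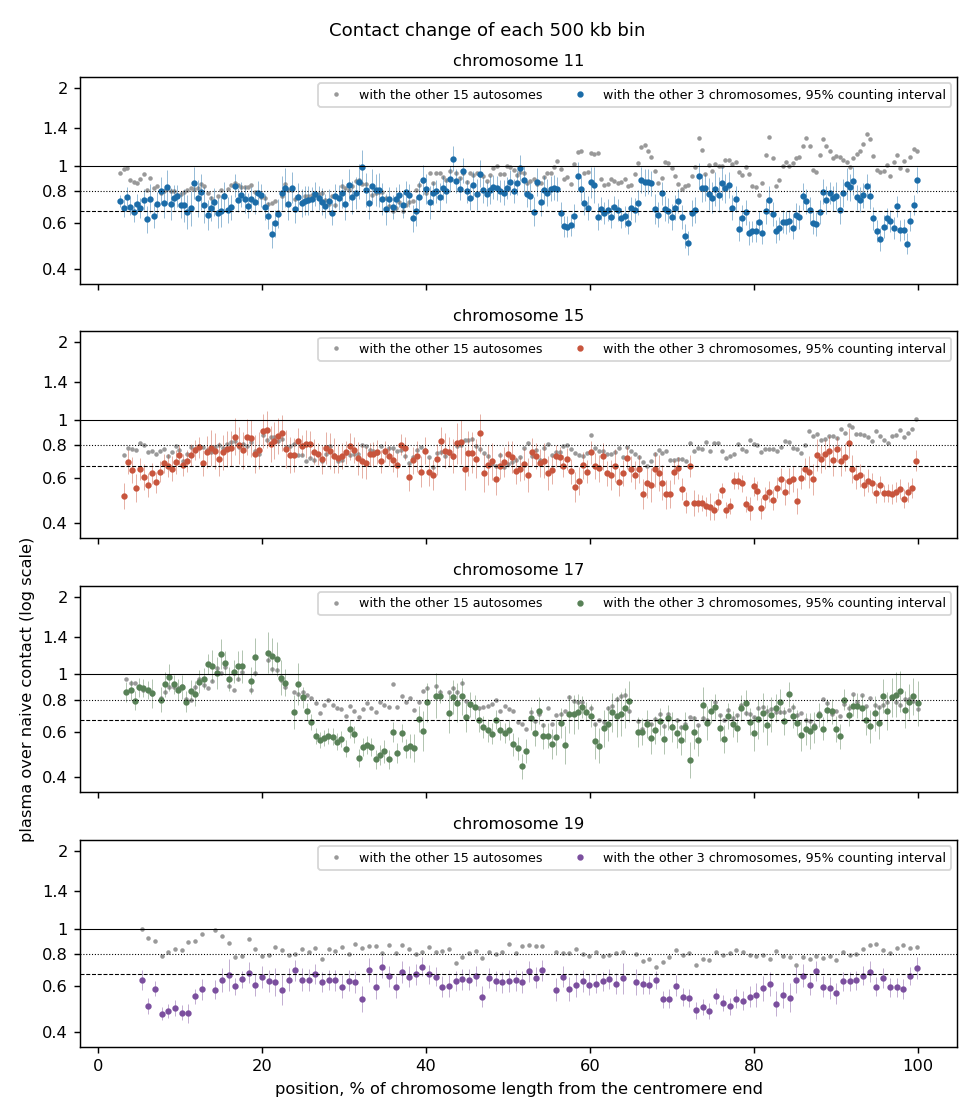
Plasma over naive ratio of each passing bin with the other 3 chromosomes (coloured points, bars are 95% counting intervals) and with the other 15 autosomes (grey), on a log axis, against position in percent of chromosome length from the centromere end. Lines mark ratios of 1, 0.8 and 1/1.5, and the dips on chromosomes 15, 17 and 19 and the rise on chromosome 17 stand out.

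Many lower bins lay in runs of at least 4, namely 41 of 61, 71 of 96, 65 of 82 and 93 of 100 on chromosomes 11, 15, 17 and 19. Where most bins are lower, as on chromosome 19, such runs can form from the share alone. Runs on the other autosomes were not counted. The longest unbroken run of lower bins was chr15:67000001-90500000 (mm9), 47 bins with a ratio of 0.533 (interval 0.526 to 0.540) and levels of 2.16 in naive and 1.43 in plasma cells. This run holds the Atf4 and Ly6e bins, and with the 15 other autosomes its ratio was 0.767. On the same chromosome chr15:95000001-103000000 had a ratio of 0.548 over 16 bins.

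On chromosome 17 the run chr17:24500001-37000000, which holds the major histocompatibility complex (H2) with Dusp1 and Pim1, had a ratio of 0.543 over 25 bins. Its level went from 2.84 to 1.91, and with the 15 other autosomes its ratio was 0.759. It was also dense in accessible chromatin, with 14.4 naive ATAC peaks per bin. On chromosome 19 the first 10 passing bins, chr19:3000001-8000000, which hold Malat1, had a ratio of 0.518 and the highest level of any run, 3.54 in naive and 2.27 in plasma cells. The run chr19:40000001-53500000 had a ratio of 0.555 over 27 bins.

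Chromosome 11 had 41 of its 61 lower bins in 7 shorter runs, of which 4 lay towards the telomere. These were chr11:95000001-99000000 (ratio 0.582), chr11:100000001-104500000 (0.605), chr11:115000001-118500000 (0.583) and chr11:119000001-121000000 (0.559). These 4 runs had ratios of 0.875, 0.994, 0.986 and 1.02 with the 15 other autosomes. Lower contact of these 4 runs was thus not seen to the same depth with the rest of the autosomes.

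Stretches that kept contact lay mostly on the centromere side of chromosome 17. The run chr17:10500001-17000000 had a ratio of 1.01 (interval 0.977 to 1.04) over 13 bins, with levels of 1.37 and 1.71, and chr17:19500001-22000000 had a ratio of 1.08 (interval 1.01 to 1.15) over 5 bins. Further runs of kept bins, with intervals below 1, were chr17:4500001-6500000 (0.875, interval 0.837 to 0.914) and chr17:7500001-10000000 (0.915, interval 0.875 to 0.957). The same runs had ratios of 0.941, 1.01, 0.868 and 0.885 with the 15 other autosomes, all at 0.8 or more. Across the bins of chromosome 17 both log2 ratios had a Pearson r of 0.77, whereas it was 0.15 on chromosome 11, 0.01 on chromosome 15 and 0.14 on chromosome 19. Elsewhere the kept runs were chr11:52000001-54500000 (0.910, interval 0.867 to 0.956), which holds Irf1, chr11:80500001-82500000 (0.866, interval 0.819 to 0.917) and chr15:20500001-23500000 (0.870, interval 0.816 to 0.929). The intervals of these last runs lay below 1 with both maps scaled to the same mean row sum. Against the mean between autosomes their levels were higher in plasma cells, at 1.32 and 1.49, 1.18 and 1.26, and 1.08 and 1.17. Whether their contact was lower or higher thus depends on the scale.

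On chromosome 17 the ratios differed by partner. Its window from 10 to 20 Mb had a log2 ratio of 0.28 with chromosome 11 and of -0.16 with chromosome 19. Its first 10 Mb had 0.12 with chromosome 11 and -0.48 with chromosome 19. From 30 to 40 Mb the values were -0.75 and -0.998. Of the 118 kept bins, 26 kept contact with each of their 3 partner chromosomes, 16 of them on chromosome 17, 9 on chromosome 11 and 1 on chromosome 15.

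The bins with the lowest ratio on each chromosome were chr11:120000001-120500000 (0.500), chr15:77500001-78000000 (0.448), chr17:49000001-49500000 (0.443) and chr19:4500001-5000000 (0.470). The bin on chromosome 19 had 3313 naive and 1506 plasma read pairs with the other 3 chromosomes and levels of 4.46 and 2.60. The bin on chromosome 17 had 0 ATAC peaks in both lists, and the one on chromosome 11 had 21 in both, so a low ratio was found at both ends of accessibility.

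The highest ratios per chromosome were at chr17:19500001-20000000 (1.21), chr11:52500001-53000000 (1.07), chr15:21000001-21500000 (0.917) and chr19:24000001-24500000 (0.713). The bin on chromosome 17 had 208 naive and 306 plasma read pairs and an interval of 1.01 to 1.45, and that on chromosome 11 an interval of 0.954 to 1.19. The highest ratio on chromosome 19 was thus below the median bin of chromosome 11.

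One bin stood apart. The bin chr17:39500001-40000000 had the highest naive level of all member bins, 5.29, and 5.41 in plasma cells, while its neighbour chr17:39000001-39500000 had 1.07 and 1.09. Whether reads map uniquely to this bin on mm9 was not tested, so its level and its listed interactions may not be contacts of this segment. In the authors' deposited lists of 1 Mb interactions, the highest Z-score in the 6 blocks belonged in both cell types to chr11:108000001-109000000 with chr17:39000001-40000000. It had 143 naive and 127 plasma read pairs where the deposited background model gave 3.34 and 2.52. In the plasma list all 5 of the highest Z-scores in these blocks involved chr17:39000001-40000000. Next in naive level was the bin chr11:3000001-3500000, with 4.91 and 4.43. Its read pairs with the other 3 chromosomes went the other way, 2120 in naive and 5043 in plasma cells, so its balanced value rests on a large coverage correction. Leaving out both bins gave a log2 ratio of -0.60 for the 6 blocks, 340 lower bins and 114 kept bins.

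Bins with more accessible chromatin had stronger naive contact with the other 3 chromosomes and lower ratios. With 0 or 1 naive ATAC peaks per bin (212 bins) the level was 1.42 in naive and 1.247 in plasma cells and the log2 ratio was -0.50 (interval -0.51 to -0.48). With 2 to 5 peaks (150 bins) the ratio was -0.58, with 6 to 11 peaks (167 bins) -0.60, and with 12 or more (201 bins) -0.67 (interval -0.68 to -0.66), where the level went from 2.07 to 1.62. The share of lower bins was 33.5% in the poorest and 59.7% in the richest class, and the share of kept bins went from 28.8% to 6.47%. With the 15 other autosomes the 4 classes had log2 ratios of -0.27, -0.30, -0.29 and -0.27, with no such order.

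The order by accessibility differed between chromosomes. From the poorest to the richest class the log2 ratio went from -0.36 to -0.59 on chromosome 11, from -0.53 to -0.75 on chromosome 15 and from -0.39 to -0.62 on chromosome 17. On chromosome 19 it was -0.75 in both. Spearman's rho between the log2 ratio and the number of naive peaks over bins was -0.42, -0.29, -0.15 and 0.09 on chromosomes 11, 15, 17 and 19. Neighbouring bins share contacts and accessibility, so these values are descriptions. The 13 kept bins with 12 or more peaks were 7 on chromosome 17, 5 on chromosome 11 and 1 on chromosome 15.

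Sorted by both partners, the differences were wider. Contact between bins of 12 or more peaks had the highest naive level, 3.85, and the lowest log2 ratio, -0.79 (interval -0.81 to -0.77), with a plasma level of 2.76. Contact between bins of 0 or 1 peaks had levels of 2.31 and 1.89 and a log2 ratio of -0.60. Between a rich and a poor bin the levels were 0.597 and 0.623 and the log2 ratio was -0.25. Contact between unlike bins was thus rare in both maps and differed least.

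Between the other pairs of autosomes the same 3 kinds of contact had log2 ratios of -0.43, -0.35 and 0.04, so the order was the same and each value was higher. Among the 6 blocks the ratio between rich bins was lowest for 15 and 19 (-1.04, levels 4.80 and 2.88) and highest for 11 and 17 (-0.54, levels 3.37 and 2.87). Rich bins of chromosome 11 with poor bins of chromosome 17 had a log2 ratio of 0.21 (interval 0.11 to 0.31), from 1373 and 1948 read pairs. With poor bins of chromosome 19, rich bins of chromosomes 11, 15 and 17 had -0.52, -0.67 and -0.55. The naive level of rich bins of chromosome 15 with these was 1.17, above the mean.

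Sorting by the difference in peaks gave smaller contrasts. Bins with at least 4 more plasma than naive peaks (87) had a log2 ratio of -0.69, those with at least 4 fewer (74) -0.58, and those within 3 peaks (569) -0.58. The bins with more plasma peaks also had a naive level of 2.07, against 1.68 and 1.71.

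Position along the chromosome gave wider differences between pairs of ends than accessibility did. The first 12 Mb, the middle and the last 12 Mb had log2 ratios of -0.58, -0.59 and -0.65. These pooled values hide chromosomes that went opposite ways: the first 12 Mb had -0.20 on chromosome 17, where the middle had -0.59, and -0.86 on chromosome 19, where the middle had -0.72. By pairs, contact of the first 12 Mb of one chromosome with the first 12 Mb of another had a log2 ratio of 0.07 (interval 0.01 to 0.13), with levels of 2.73 and 3.56. Contact between last 12 Mb segments had a ratio of 0.00 (interval -0.05 to 0.05), with levels of 1.72 and 2.13.

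Contact of a first with a last segment had a log2 ratio of -1.32 (interval -1.37 to -1.27), and its level went from 2.49 to 1.23. Ends of the same kind thus kept their contact over the 6 blocks together, and opposite ends had the lowest ratio of the 6 combinations of position. In the other pairs of autosomes opposite ends were also lowest, with 0.29 between first, 0.42 between last and -1.18 between opposite segments. Middle segments had -0.57 with each other in the 6 blocks and -0.32 in the other pairs.

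**Figure D3:**
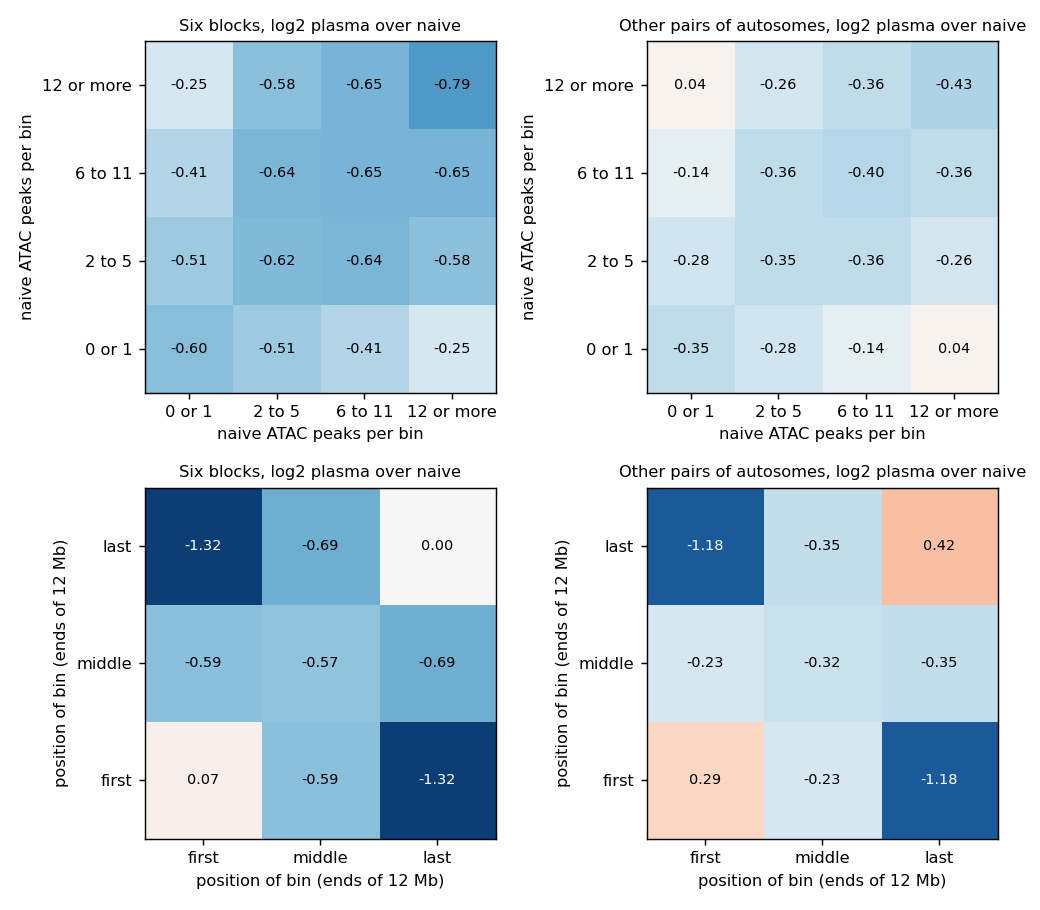
Plasma over naive contact (log2) by the classes of both partner bins, for the 6 blocks (left) and the other pairs of autosomes (right), with classes by naive ATAC peaks above and by position below. Rich bins with rich bins (-0.79) and first with last segments (-1.32) are lowest in the 6 blocks.

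The blocks showed this pattern of ends to different degrees. The last 12 Mb of chromosome 15 and the first 12 Mb of chromosome 19 had levels of 5.05 in naive and 1.93 in plasma cells (log2 ratio -1.70, from 2165 and 656 read pairs). The last 12 Mb of chromosome 11 and the first of chromosome 19 had 5.18 and 2.02 (-1.67, from 2489 and 754 read pairs). In both cases the plasma level stayed above the 1.44 of the 6 blocks together.

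Contacts of like ends were higher in plasma cells in the block of chromosomes 11 and 17. Its first segments had a log2 ratio of 0.76 (interval 0.62 to 0.89), with levels of 2.31 and 4.82 from 638 and 1451 read pairs. Its last segments had 0.94 (interval 0.79 to 1.09), with levels of 0.997 and 2.37. Without the bin chr11:3000001-3500000, the value of the first segments was 0.71, from 568 and 964 read pairs. First segments of 17 and 19 had 0.28 and last segments of 15 and 17 had 0.25. In the block of 15 and 19 both kinds of like ends were lower, at -0.35 for first and -0.44 for last segments. Also lower were first segments of 11 and 19 (-0.25) and last segments of 11 and 15 (-0.23) and of 17 and 19 (-0.25). Intervals spanned 0 for first segments of 11 and 15 and of 15 and 17, and for last segments of 11 and 19.

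Tiles of 5 by 5 Mb placed these differences within each block. Of 1759 tiles with at least 50 read pairs in either map, 862 (49%) were lower and 581 (33%) kept, against 33.9% and 47.9% of tiles between the other pairs of autosomes. The count of lower tiles shares the contrast that chose the chromosomes. A ratio of at least 1 was found in 283 tiles (16.1%, against 27.3%). Of these, 127 were among the 378 tiles of the block of 11 and 17, and 9 among the 210 of 15 and 19. A tile could pass through 1 map alone, the one where it is high, so these counts depend in part on the filter.

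The lowest tile joined the last stretch of chromosome 15, from base 100000001, with chr19:5000001-10000000. It had 466 naive and 110 plasma read pairs, levels of 7.33 and 2.10, and a ratio of 0.232 (interval 0.186 to 0.286). The same stretch of chromosome 15 with chr17:25000001-30000000 had levels of 6.29 and 2.15 (ratio 0.277), and chr11:100000001-105000000 with chr19:5000001-10000000 had 7.70 and 2.68 (ratio 0.282). These 3 join accessible segments, with 76 to 140 naive peaks each. The other two of the lowest 5 had levels under 3 in naive cells, chr15:20000001-25000000 with chr17:90000001-95000000 (ratio 0.248) and chr11:25000001-30000000 with chr17:75000001-80000000 (0.278).

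The highest tiles were few in reads, and some reached the 50 read pairs only through the plasma map, where they are high, so their place in the order follows in part from that filter. The tile chr11:100000001-105000000 with chr17:90000001-95000000 had 11 naive and 52 plasma read pairs and a ratio of 4.87 (interval 2.51 to 10.3). Its neighbour chr11:105000001-110000000 had 26 and 120 with the same partner (ratio 4.72, interval 3.07 to 7.51). Of the 5 highest tiles 4 had chr17:90000001-95000000 as a partner, the segment at the end of chromosome 17, which held 10 naive peaks. The fifth joined chr11:105000001-110000000 with chr15:90000001-95000000 (ratio 2.54).

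The 5 strongest naive tiles were formed by 4 segments. The tile chr15:75000001-80000000 with chr17:25000001-30000000 had levels of 12.5 and 5.63, chr15:75000001-80000000 with chr19:5000001-10000000 had 12.3 and 4.59, and chr17:25000001-30000000 with chr19:5000001-10000000 had 12.2 and 7.49. The tiles of chr17:30000001-35000000 with these segments of chromosomes 19 and 15 had 11.3 and 4.95, and 10.7 and 4.46. All 5 remained well above the mean of 1 in plasma cells, while their ratios lay between 0.302 and 0.496.

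**Figure D4:**
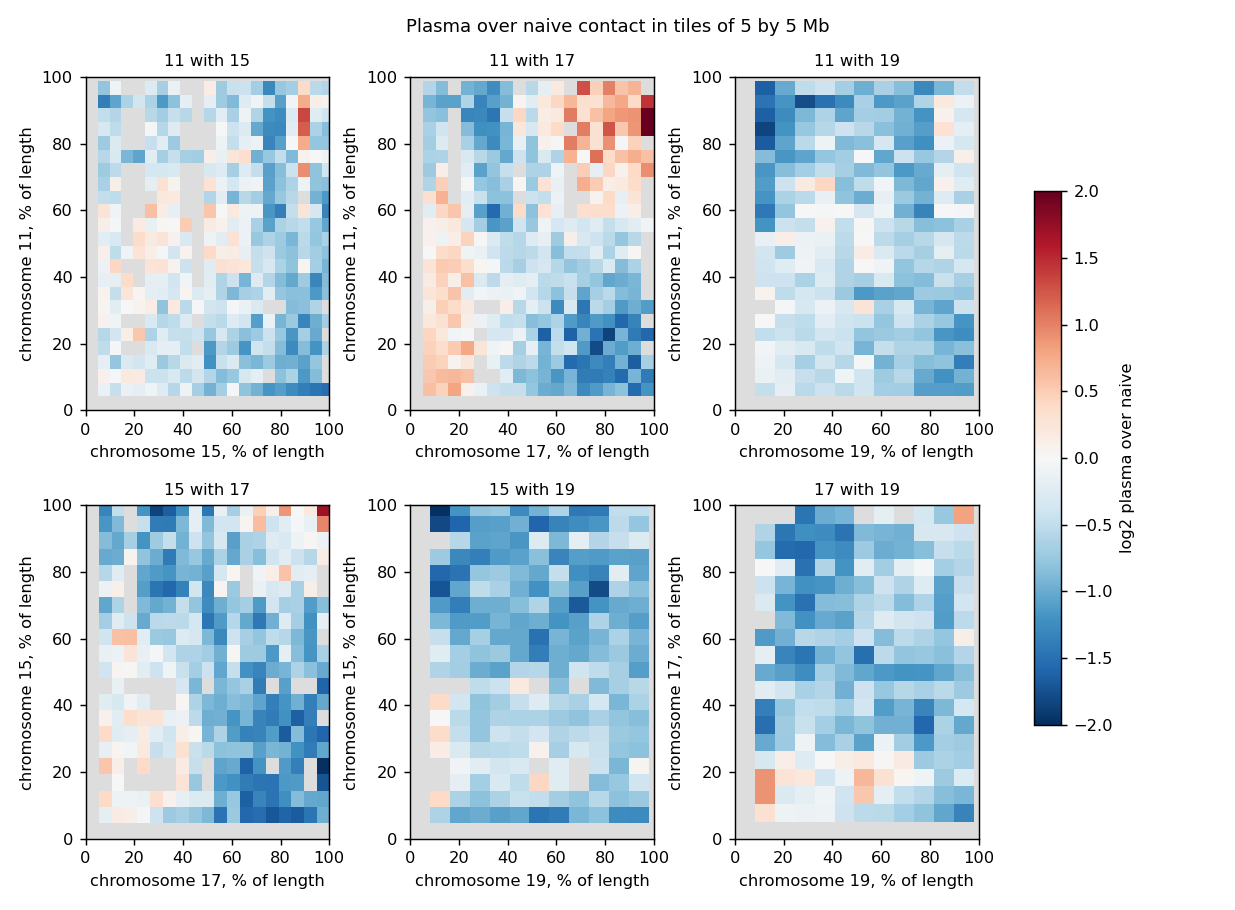
Plasma over naive contact (log2) in tiles of 5 by 5 Mb of the 6 blocks, with both axes in percent of chromosome length from the centromere end. Blue is lower and red higher in plasma cells, and grey tiles had too few read pairs or bins. In the block of 11 and 17 red tiles fill the corners where like ends meet.

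The authors' deposited lists of 1 Mb interactions gave the same picture in counts. In the 6 blocks 4296 interactions were listed for the naive map and 2266 for the plasma map, while between the other pairs of autosomes there were 47160 and 47108. Shared were 1395, which is 32.5% of the naive and 61.6% of the plasma interactions of the 6 blocks, against 31.0% and 31.0% elsewhere. The block of 15 and 19 went from 949 to 279, that of 11 and 19 from 852 to 364, and that of 11 and 17 from 664 to 598. Listing depends on the read pairs in each library and on a background model, so these counts restate the maps and add no separate measurement.

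By segment, the listed interactions of the window from 40 to 50 Mb of chromosome 19 went from 643 to 249, and those of its first 10 Mb from 478 to 259. On chromosome 17 the window from 30 to 40 Mb went from 584 to 315. On the same chromosome the first 10 Mb went up from 161 to 201 and the next 10 Mb from 67 to 121. Smaller increases were those of chromosome 11 from 50 to 60 Mb (108 to 113) and of chromosome 17 from 80 to 90 Mb (41 to 50) and from 90 Mb (18 to 20).

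Placed at approximate mm9 positions, genes of interest to B cells and plasma cells lay in 22 bins of the 4 chromosomes (23 genes, with Ern1 and the B cell receptor gene Cd79b in 1 bin). Of these 16 bins were lower, 5 lay between and 1, that of the interferon regulator Irf1, was called kept. Its ratio was 0.815 with an interval of 0.734 to 0.904, which lies below 1. Over all member bins 46.4% were lower and 16.2% kept, and of those with 12 or more peaks, the class of most of these genes, 59.7% were lower. Malat1, a nuclear RNA gene, had the lowest bin (0.494, interval 0.461 to 0.529), at levels of 3.58 and 2.19. Top2a, the DNA topoisomerase of dividing cells, followed with 0.551.

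The 3 genes of the unfolded protein response lay in lower bins, and their RNA was higher in plasma cells. The Xbp1 bin had a ratio of 0.662 (interval 0.607 to 0.721) and levels of 2.50 and 2.05, with 109 TPM in naive and 939 TPM in plasma cells (4.08 on the log2 scale relative to all genes) and 11 and 20 ATAC peaks. The Atf4 bin had 0.584 (0.542 to 0.629) and levels of 2.90 and 2.10, with 325 and 441 TPM (1.43). The Ern1 bin had 0.602 (0.543 to 0.667) and levels of 1.75 and 1.30, with 5.89 and 22.9 TPM (2.78). Pim1, a kinase gene with 45.6 and 384 TPM (4.03), lay in a bin of 0.586. H2-Ab1, a class II antigen presentation gene with 3582 and 910 TPM (-0.99), lay in a bin of 0.599. Relative to all genes, each gene of the list with more RNA in plasma cells lay in a lower bin (ratios of 0.494 to 0.662). Of these, Malat1 (305 and 214 TPM), H2-D1 (2372 and 2020), Myc (63.9 and 37.9) and Fas (8.79 and 8.32) had fewer TPM in plasma cells. They count as higher only relative to the median difference over all genes. Whether RNA and contact change together was not tested. The bins not called lower held genes with less RNA, namely Irf1, Rel (0.787), Ebf1 (0.769), Ikzf1 (0.762), Zfp36l2 (0.726) and Ms4a1 (0.678). Genes with less RNA also lay in lower bins, as H2-Ab1, Cd79b (0.602) and Cd5 (0.637) did.

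Contacts between pairs of these genes were read in windows of 3 bins around each gene, which cannot single out the gene from its neighbours. Of 191 pairs on different chromosomes 91 (47.6%) had a counting interval below 1 and 0 above it, against 16.9% and 1.13% of 21509 pairs of such windows throughout the 6 blocks. The gene windows had more read pairs (median 28 in the naive map, against 10), and with more reads an interval excludes 1 more easily. Windows of Ern1 and Cd79b are the same, and those of H2-Ab1 and H2-D1 overlap.

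Contact between Xbp1 and Atf4 was well above the mean in both maps and lower in plasma cells. They had 125 naive and 56 plasma read pairs, levels of 11.2 and 6.36, and a ratio of 0.458 (interval 0.328 to 0.633). Ern1 and Atf4 had 95 and 39 read pairs, levels of 9.37 and 4.52, and a ratio of 0.390 (0.261 to 0.571). Some genes outside the unfolded protein response had similar values with Atf4. Top2a had levels of 9.94 and 6.57 (ratio 0.534), and Dusp1 had 14.8 and 8.31 (0.454). Irf1 with Atf4 differed, with levels of 3.29 and 3.97 (0.973). High contact with Atf4 and a low ratio were thus not particular to Xbp1 and Ern1.

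Malat1 had the strongest contacts of these windows. With H2-D1, a class I antigen presentation gene, it had 318 and 83 read pairs, levels of 35.3 and 11.4, and a ratio of 0.260 (0.201 to 0.332). With H2-Ab1 it had levels of 32.6 and 11.96 (ratio 0.296, interval 0.230 to 0.377), and with Atf4 22.1 and 9.30 (0.340, interval 0.262 to 0.437). Ern1 lies towards the telomere of chromosome 11, though outside its last 12 Mb. With Malat1 its level went from 13.9 to 2.99 and its read pairs from 141 to 25, a ratio of 0.174 (0.109 to 0.268).

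Xbp1, near the centromere end of the same chromosome, had a ratio with Malat1 of 0.815 (0.637 to 1.04) from 152 and 121 read pairs, with levels of 13.7 and 13.9. In windows of 5 bins its log2 ratio was -0.53 (interval -0.77 to -0.29), wholly below 0. The intervals of Xbp1 and of Ern1 with Malat1 do not overlap, and both genes lie on chromosome 11. Xbp1 with the chromosome 17 genes Dusp1, a phosphatase gene, and Pim1 had ratios of 0.899 (0.669 to 1.21) and 0.936 (0.681 to 1.28). Of the 14 Xbp1 pairs, 6 had an interval below 1, and of the 14 Ern1 pairs 8 did.

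**Figure D5:**
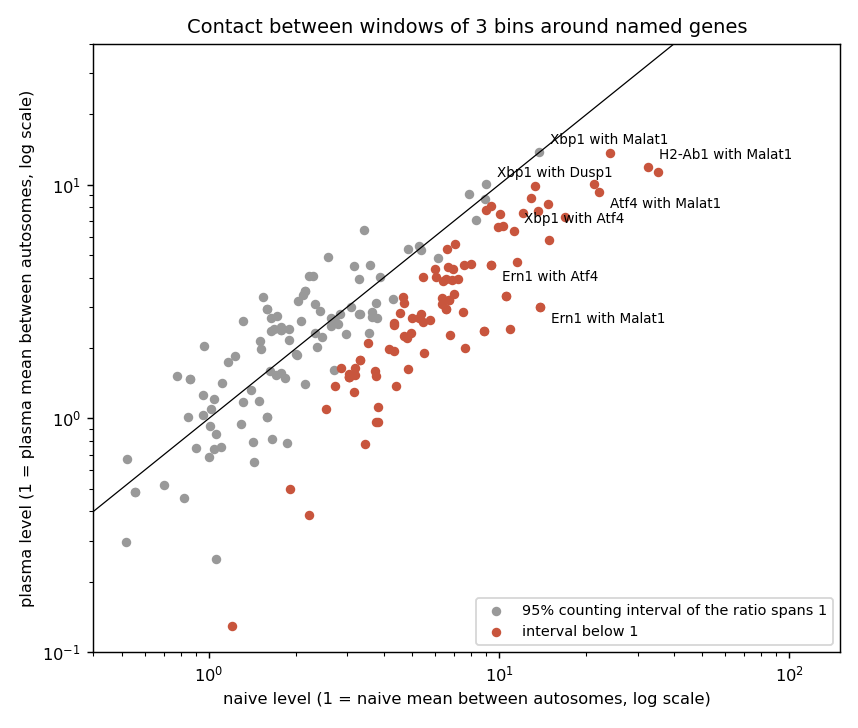
Plasma against naive contact level of windows of 3 bins around pairs of named genes, on log axes with 1 as each map's mean between autosomes. Red pairs have a counting interval of the ratio below 1, grey pairs an interval that spans 1, and the line marks equal levels. Ern1 with Malat1 lies well under the line at 2.99 in plasma, and Xbp1 with Malat1 lies on it.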

How the data were processed

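The submitters' processing notes name mm9 as the build, and list kallisto, MACS 1.4, HOMER, Bowtie, Picard and TopHat without their roles. The deposited maps hold a contact signal that the authors had balanced (equal row sums), in bins of 500 kb and 2 Mb, which removes differences in coverage between bins. The authors' deposited interaction lists give counts of read pairs, an expected value and a Z-score per 1 Mb pair, with a false discovery rate (an adjusted p-value), per the file headers. The authors' peaks carry 1 score each, which was not used. The deposited kallisto files give estimated counts and TPM per transcript.

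Bins were ordered as chromosomes 1 to 19, X and Y by their mm9 length, and the 6 empty bins that open every chromosome matched that order. Both maps were symmetrised and scaled to the same mean row sum. A bin passed where the nonzero part of its entries with the other autosomes reached 0.5 of the median in each map. Whole read pairs behind the balanced values were recovered from the steps of low values. In the naive map 99.9% and in the plasma map 100% of nonzero entries between autosomes were whole within 0.05, and 99.8% and 100.0% of listed interactions had the same read pairs. Intervals are exact (Clopper-Pearson) at 95% on those read pairs, carried over to balanced ratios. They cover counting error only, because 1 library per cell type holds no spread between samples. Read pairs without molecular identifiers are not independent molecules, so the intervals may be too narrow even for that. Peaks were assigned to bins by their midpoint, and the ATAC depth is unknown. Of 61112 transcripts 57889 matched the symbol table by gene ID.

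With 1 library per cell type no test was made. Members, gene lists, classes and groupings were chosen with earlier results of these data known. Named regions were the 3 lowest and 3 highest bins per chromosome with at least 100 naive read pairs, of which the text gives the first, the 5 lowest and highest tiles, and the bins of 23 genes. Positions of the genes on mm9 are approximate and come from general knowledge, and all 23 are on the same chromosome in the GRCm38.p6 annotation. No coordinates were converted. The recovery of read pairs and the calls were tested on simulated maps with 200 changed member bins, of which 100% were called lower and 0% of the others. These shares do not show how often a bin near a cut-off is called wrongly, which was not tested. Many bins of the data lie near the cut-offs, since the lower and upper quartiles of the member ratios were 0.604 and 0.761. Python 3 with numpy, pandas, scipy and matplotlib was used. ChIP-seq samples of the series were not analysed here.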

Additional observations from a re-analysis of the deposited data

How the results depend on the processing

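No paired analysis was possible because each cell type has 1 library per assay. Of the results below none changed direction, and no value has a replicate check. The exception among single pairs of genes was Xbp1 with Malat1, whose interval spanned 0: its log2 ratio was -0.29 and became 0.01 with the same mean contact between autosomes. The log2 ratio of the 6 blocks was -0.59 and moved to -0.28 with the same mean contact between autosomes, -0.57 with unbalanced read pairs, -0.59 (-0.585) with no bin filter, -0.64 with a filter at 0.8, -0.57 without the first and last 12 Mb, and -0.75, -0.53, -0.65 and -0.47 without chromosomes 11, 15, 17 and 19. The 339 lower bins became 31 at a ratio of at most 1/2, 612 at 0.8, 72 with the same mean between autosomes, and 193 and 166 without chromosomes 15 and 19. The 118 kept bins became 31 at a ratio of at least 0.9, 13 at 1, 440 with the same mean between autosomes, 191 with unbalanced read pairs, and 29 and 72 without chromosomes 11 and 17. The richest minus the poorest ATAC class was -0.17 on the log2 scale and moved to -0.13 with quartiles of peaks, -0.14 with quartiles of bases covered, -0.21 with unbalanced read pairs, -0.14 with a filter at 0.8, -0.15 without the chromosome ends, and -0.10, -0.22 and -0.19 without chromosomes 11, 17 and 19. Opposite minus like ends was -1.35 and moved to -1.51 with ends of 6 Mb, -0.92 with ends of 20 Mb, and -1.20, -1.46, -1.23 and -1.45 without chromosomes 11, 15, 17 and 19. The ratio of the 6 blocks minus that of the same bins with the 15 other autosomes was -0.31 and moved to -0.33 with unbalanced read pairs and -0.27 without the ends. Of the listed interactions, 2925 in place of 1395 were shared within 1 bin. Contact over all gene windows was -0.91 and moved to -0.61 with the same mean between autosomes. The cause of these changes was not tested beyond what each setting leaves out. Leaving out the 2 bins with the highest naive level was added after seeing the data and moved none of the 6 results it was run on. In windows of 1 bin the log2 ratio of Xbp1 with Atf4 was -0.38 (interval -2.04 to 1.22) and that of Xbp1 with Malat1 -0.63 (-1.80 to 0.49), both too shallow to show a difference. Those of Ern1 with Malat1 (-3.12, -5.49 to -1.42), Ern1 with Atf4 (-1.97, -4.02 to -0.32) and H2-Ab1 with Malat1 (-1.32, -2.26 to -0.43) stayed below 0.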
